A study of Mus musculus with 3 samples.

Results

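The cells described have high MHC class II and detected C1q, are named macrophages here by that rule, and were found among Ly6Chi monocytes sorted from mouse livers 24 h after acetaminophen overdose. They were chosen by a rule on measured values. A barcode had to show 500 or more genes and no more than 10% of its UMIs (unique molecular identifiers, each counting 1 captured transcript) from mitochondria. It then needed at least 15 UMIs of H2-Aa, H2-Ab1 and H2-Eb1 together per 10000 UMIs, at least 2 UMIs of C1qa, C1qb and C1qc together, and no more than 2 of the 6 patrolling monocyte genes Ace, Adgre4, Spn, Treml4, Ear2 and Ceacam1 detected. The rule gave 863 cells of 16021, or 5.39%.

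The study sorted Ly6Chi monocytes from livers of male C57BL/6 mice aged 8 weeks, all of which had been fasted for 12 h and given 300 mg/kg acetaminophen into the peritoneum. There were 2 control libraries, numbered 1 and 3 in the labels, from Commd10 fl/fl mice, whose floxed gene is intact. The single knockout library, numbered 4, came from LysMΔCommd10 mice, in which Cre driven from the lysozyme locus Lyz2 deletes Commd10 in myeloid cells, so neutrophils and macrophages as well as monocytes. No untreated liver was analysed here, and all groups carry the floxed allele and the drug injury. Whether a library came from 1 mouse or several is not stated in the labels. The p-values between genotypes below therefore rest on the spread between the 2 control libraries, part or all of which may be technical. That spread gave 1 residual degree of freedom, and 13.8 more were borrowed from the trend over genes.

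MHC class II molecules present peptides from ingested material to CD4 T cells. H2-Aa, H2-Ab1 and H2-Eb1 encode their alpha and beta chains, Cd74 the invariant chain that escorts them, H2-DMa and H2-DMb1 the chaperone that exchanges peptides, and Ciita the coactivator that switches the whole set on. C1q, built from the products of C1qa, C1qb and C1qc, starts the classical complement pathway and tags dying cells for uptake, and macrophages are its main source. The MHC class II genes of the rule lie together on chromosome 17 (H2-Ab1 from 34257689, H2-Aa from 34282744, H2-Eb1 from 34305867 to 34316674) and the C1q genes on chromosome 4 (136880129 to 136898803), in GRCm38 as annotated by GENCODE. In the injured liver, recruited monocytes lose monocyte genes as they become macrophages, which clear dead hepatocytes.

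Promoters of MHC class II genes are shown because H2-Aa and H2-Eb1 are among the genes that define the cells. Both held the same short element, and H2-Ab1, also of the rule, was not matched. In the RefSeq promoter table (GRCm38.p6, from 250 bases before to 50 after each start), 8 MHC class II genes had an entry, and 7 of them held the letters TGATTGG on either strand. These letters are an extended core of the Y box, bound by the factor NF-Y, and were chosen after the sequences were seen. They were found in 7.82% of all 32851 promoters of the table, and the shorter core ATTGG, which they contain, in 37.4%. Cd74, C1qa and Ciita were not matched either. The stretches below run from upstream to downstream on the gene's own strand, with the Y box letters in capitals. These letters begin 50, 61 and 63 bases before the start of the RefSeq table for H2-Aa, H2-Eb1 and H2-DMb1 in that order. For H2-DMb1 the GENCODE gene begins further upstream, at 34153072, so there the letters lie inside the gene as GENCODE draws it. The minus strand of H2-Aa (chr17:34287837-34287933) and the plus strand of H2-Eb1 (chr17:34305746-34305842) and H2-DMb1 (chr17:34153068-34153164) are printed.
H2-Aa: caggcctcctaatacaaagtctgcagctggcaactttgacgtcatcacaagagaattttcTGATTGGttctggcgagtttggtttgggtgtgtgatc
H2-Eb1: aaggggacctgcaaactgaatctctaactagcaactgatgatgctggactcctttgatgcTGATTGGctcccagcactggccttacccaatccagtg
H2-DMb1: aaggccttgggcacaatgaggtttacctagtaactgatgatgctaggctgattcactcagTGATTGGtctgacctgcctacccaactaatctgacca
A match describes these letters and is neither a shown binding site nor a cause of the levels.

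The libraries held 4115, 7449 and 4457 cells after filtering (control 1, control 3 and knockout 4, the order used throughout), from 40092348, 72867668 and 30302932 UMIs. Members had medians of 8831, 8577 and 7283 UMIs, so the knockout library was the shallowest per cell. Between 8 and 26 barcodes were shared by any pair of libraries, and 0 of them were members. Lyz1, a lysozyme gene of some monocytes, stood apart in control 1, with 6.81 CPM in members beside 242 and 211 in the other libraries. CPM here means the UMIs of a gene per 1000000 UMIs summed over the cells of the class in that library. Commd10 itself stood at 22.3, 11.2 and 4.86 CPM, from 36, 42 and 8 UMIs. Its difference did not pass (log2 fold change -1.65 ± 0.59 SE, edgeR adjusted p = 0.577), and 3' tags need not lie in the deleted part, so this value does not check the deletion.

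The rule was met by 190 cells in control 1 (4.62%, exact Clopper-Pearson 95% interval 4.00 to 5.30%), 421 in control 3 (5.65%, 5.14 to 6.20%) and 252 in knockout 4 (5.65%, 4.99 to 6.37%). The intervals cover counting error only. The knockout share lay beside that of control 3 and above that of control 1, so the genotypes did not separate. With 1 library against 2, a permutation test cannot go below p = 1/3. The C1q limit counts raw UMIs and the patrolling limit counts detected genes, so both depend on depth. Each cell was therefore also thinned to 3000 UMIs, leaving out 527 shallower cells in control 1, 713 in control 3 and 757 in knockout 4. The shares were then 5.35, 6.87 and 5.30%, and the knockout lay below both controls.

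**Figure D1:**
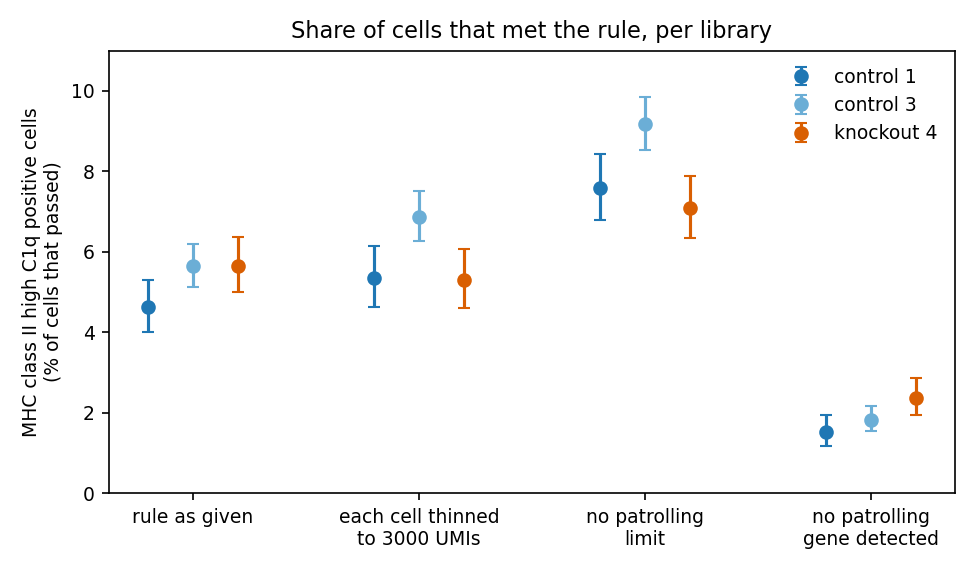
Share of cells that met the rule in each library (percent of cells that passed the filters, y axis), with exact 95% binomial intervals, under the rule as given and 3 changes to it. The knockout is level with control 3 under the rule (5.65% both), lowest without the patrolling limit (7.09%) and highest when no patrolling gene may be detected (2.38%).

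The patrolling limit decided much of the membership. Patrolling monocytes are the Ly6C-low cells that crawl along vessel walls. Without that limit, 7.58, 9.17 and 7.09% of cells would be counted. It left out 122 cells (39.1%), 262 cells (38.4%) and 64 cells (20.3%) of those that met the other parts. Requiring 0 patrolling genes would leave 1.53, 1.83 and 2.38%. Thus the knockout library was lowest without the limit and highest under its strictest form. The limit counts detected genes, so it depends on the depth of a cell, and the knockout library was the shallowest. Over all cells it left out 1387 of 4115, 2415 of 7449 and 825 of 4457. In cells thinned to 3000 UMIs it left out 474 of 3588, 634 of 6736 and 366 of 3700. The part of depth in these shares was not tested. Among members, 63, 136 and 106 cells had none of the 6 genes detected, 75, 160 and 74 had 1, and 52, 125 and 72 had 2. Treml4, an immune receptor, was the patrolling gene detected most often, in 28.9, 31.6 and 25.4% of members.

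The values that chose the cells are given as a description. Members had medians of 49.4, 65.7 and 75.5 MHC class II UMIs per 10000, with the tenth to the ninetieth percentile running from 19.9 to 199 in control 1, 21.7 to 197 in control 3 and 20.6 to 236 in knockout 4. Their C1q medians were 31.2, 30.3 and 44.6 per 10000. MHC class II and C1q varied almost apart from each other among members: Spearman's rho over cells was 0.21, 0.15 and 0.16 (n = 190, 421 and 252 cells). Cd74, which the rule did not use, had medians of 74.7, 95.7 and 109 per 10000 and followed MHC class II closely (rho 0.85, 0.85 and 0.82 over the same cells). Both measures of a cell share its depth, and these are descriptions of cells within a library.

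Cells just inside and just outside the limits were also compared in genes the rule did not use. Members at 15 to 20 MHC class II UMIs per 10000 (20, 28 and 22 cells) held 3840, 4397 and 4440 CPM of Cd74. C1q positive cells at 10 to 15 (20, 48 and 28 cells) held 3091, 3559 and 3895. Members with exactly 2 C1q UMIs (19, 29 and 22 cells) had Apoe at 4536, 7871 and 6379 CPM, and MHC class II high cells with 1 C1q UMI (40, 109 and 52 cells) had it at 3914, 7808 and 6827. Apoe encodes a lipid carrier abundant in macrophages.

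The label of macrophage was checked against defining genes. Csf1r, the receptor for the macrophage growth factor M-CSF, was detected in 176 of 190, 393 of 421 and 235 of 252 members, the lysosomal protein gene Cd68 in 179, 411 and 237, and Fcgr1, the high-affinity IgG receptor, in 143, 341 and 205. Adgre1, which encodes F4/80, was found in 104, 237 and 120 cells, and Mertk, a receptor for uptake of dying cells, in 55, 128 and 66. Monocytes carry most of these genes too. Ccr2, the receptor that draws monocytes out of the marrow, was detected in 171, 351 and 211 members, and Ly6c2, which encodes the Ly6C antigen of the sort, in 85, 251 and 121.

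Cells low in both MHC class II and C1q (1637, 3144 and 2479 cells with medians of 8093, 7436 and 6725 UMIs) show which of these genes set members apart. Mertk stood at 52.0, 49.5 and 57.7 CPM in members and at 23.4, 13.6 and 15.9 in those cells. Ly6c2 stood at 190, 282 and 213 beside 716, 860 and 765. Cd68 (983, 994 and 1007 beside 790, 654 and 736) and Csf1r (709, 641 and 730 beside 550, 534 and 477) lay moderately higher in members. Adgre1 did not separate the classes (117, 123 and 138 beside 146, 136 and 97.6). In the 17, 15 and 8 cells with 2 or more of the B cell genes Cd79a, Cd79b and Ms4a1, which should lack these genes, Csf1r was detected in 5, 7 and 2, Cd68 in 5, 8 and 1 and Mertk in 2, 4 and 0, at medians of 2302, 5499 and 2512 UMIs. In control 3 the share with Mertk (26.7%) was thus near that of members (30.4%). These genes do not draw a line between macrophages and the monocytes sorted with them, and the name rests on the rule.

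Of the 12 genes of Kupffer cells, the resident liver macrophages, Clec4f, Timd4 and Cd163 were at or near 0. Clec4f, the C-type lectin of Kupffer cells, gave 4, 4 and 0 UMIs in all members together, Timd4 gave 1, 0 and 0, and Cd163 gave 0, 1 and 0. The 12 Kupffer cell genes summed to 51.4, 14.7 and 12.8 CPM, with 4, 5 and 5 of them at 0. Marco, Cd5l and Folr2, also of that list, had means of 8.20, 6.45 and 3.23 CPM over the libraries. The list summed to 14.4, 9.90 and 8.78 CPM in the MHC class II high C1q low cells described below. In the C1q positive MHC class II low cells it summed to 25.6, 22.1 and 12.2, so control 1 members held the most. Dendritic cell genes were mixed. Batf3, a transcription factor gene of dendritic cells, stood at 76.8, 66.6 and 60.1 CPM and was detected in 64, 129 and 64 members, and the lectin gene Clec10a stood at 49.5, 15.2 and 19.4. Xcr1, of cross-presenting dendritic cells, gave 0 UMIs in each library, which allows up to 1.86, 0.803 and 1.82 CPM, and Zbtb46, a transcription factor of conventional dendritic cells, gave 2, 1 and 0. The 14 dendritic cell genes summed to 159, 112 and 101 CPM, with 1, 2 and 7 of them at 0, and their part in the results was not tested. Mast cell and basophil genes were all at 0.

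Lymphocyte genes marked few members. At least 2 B cell or at least 2 T cell genes were detected in 5, 6 and 1 members. The 9 B cell genes summed to 147, 28.6 and 22.5 CPM, led in control 1 by 24 UMIs of Cd79a that lay in 2 cells. C1q was also seen in cells that should lack it: 2 of 17, 3 of 15 and 0 of 8 of the cells with B cell genes above had 2 or more C1q UMIs. Among cells with T cell genes the numbers were 12 of 20, 0 of 15 and 1 of 8, and those of control 1 had a median of 23441 UMIs. Doublets were not called here, and the part of free RNA or doublets in membership was not tested.

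To show what the C1q part of the rule goes with, members were set beside cells that met the same MHC class II and patrolling limits with under 2 C1q UMIs (169, 478 and 225 cells, called MHC class II high C1q low cells). Members held more RNA of macrophage maturation genes and of some chemokine genes, and less RNA of monocyte and immediate-early genes. The rule split these classes from the same cells, so all values here are descriptions with no test. Of 8506 genes, 3.62% passed an adjusted p of 0.05 in the blocked edgeR fit (1.56% higher and 2.06% lower in members), and 0.870% with DESeq2, from which nothing is read. Members were higher in all 3 libraries for 18.4% of genes and lower in all 3 for 17.7%, counted within each library.

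Among genes of macrophage maturation, members had higher values in every library for 18 of 22, and the median log2 difference was 0.26, beside 0.00 over all genes. Ms4a7, a membrane protein gene of maturing macrophages, stood at 191, 237 and 240 CPM in members and at 109, 142 and 113 in C1q low cells. Dab2, an endocytic adaptor gene, stood at 254, 219 and 267 beside 129, 130 and 192. Mertk stood at 52.0, 49.5 and 57.7 beside 33.5, 29.1 and 43.1. For all 3 genes each member value lay above each C1q low value. Genes named in this comparison were chosen with their values known, and the share of all genes without such overlap was not counted.

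Mrc1, the mannose receptor gene, stood at 136, 50.03 and 121 CPM in members and at 39.3, 32.8 and 72.7 in C1q low cells. Member and C1q low values of Mrc1 overlapped between libraries, although the member value was the higher within each. Nr1h3, which encodes the sterol sensor LXR alpha, had 197, 242 and 282 beside 147, 181 and 161. The lysosomal protease genes Ctsb (3185, 3125 and 3810 beside 2572, 2285 and 2718) and Ctsd (2580, 2543 and 2894 beside 2077, 1986 and 2336) were higher without overlap.

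Of 22 chemokine and cytokine genes, 10 were higher in members in every library and 2 lower, with a median of 0.18. Ccl24, an eosinophil-attracting chemokine gene, stood at 349, 389 and 1439 CPM in members and at 153, 152 and 663 in C1q low cells, a log2 difference of 1.21 ± 0.06 (SE) with the library as block. Pf4, a chemokine gene of platelets that macrophages also express, stood at 536, 282 and 728 beside 130, 172 and 224 (1.38 ± 0.14). Ppbp, the other platelet gene tested, was also higher in members in every library (7.43, 1.07 and 28.5 beside 2.87, 0.619 and 11.2), from 12, 4 and 47 UMIs, and the part of platelet RNA in the Pf4 value was not tested. Ccl7, which attracts monocytes, stood at 569, 342 and 302 beside 142, 193 and 154 (1.19 ± 0.13). The knockout library was thus the highest for Ccl24 in both classes, while for Ccl7 it was the lowest of the members. Cxcl10, a chemokine gene induced by interferon, went the other way, with 34.7, 92.8 and 69.8 beside 243, 145 and 138 (-1.25 ± 0.20).

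Of 19 Ly6Chi monocyte genes, 10 were lower in members in every library and 1 was higher, with a median of -0.31. Plac8 stood at 930, 1290 and 1336 beside 1494, 1842 and 1781, and Ly6c2 at 190, 282 and 213 beside 225, 446 and 351. Among 21 immediate-early genes 12 were lower in every library and 0 higher. The transcription factor gene Klf2 stood at 98.5, 180 and 171 beside 170, 272 and 233, and Klf4, which drives monocyte differentiation, at 37.2, 67.7 and 44.3 beside 92.9, 91.2 and 68.7. Immediate-early genes also respond to tissue digestion, and the part of handling was not tested.

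The endoplasmic reticulum chaperone genes Pdia4 and Creld2 were higher as well. Pdia4 stood at 145, 146 and 161 beside 83.3, 100.5 and 67.1, and Creld2 at 84.8, 104 and 158 beside 45.0, 69.3 and 87.0. Of 14 other MHC class II presentation genes, 1 was higher in every library and 6 lower, with a median of -0.06. Lgmn, a lysosomal protease gene, was the higher one (1376, 1331 and 1654 beside 1238, 1026 and 1382). Ciita stood at 71.2, 62.9 and 61.3 in members and at 116, 90.6 and 69.5 in C1q low cells, and H2-DMb1 at 363, 398 and 324 beside 476, 505 and 352. The 14 dendritic cell genes summed to 159, 112 and 101 CPM in members and to 206, 198 and 122 in C1q low cells. Of 4 tested, 1 was lower in members in every library and 0 higher. Their lowest log2 difference, -2.03, was also the lowest of all genes. The part of dendritic cells in these values was not tested.

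**Figure D2:**
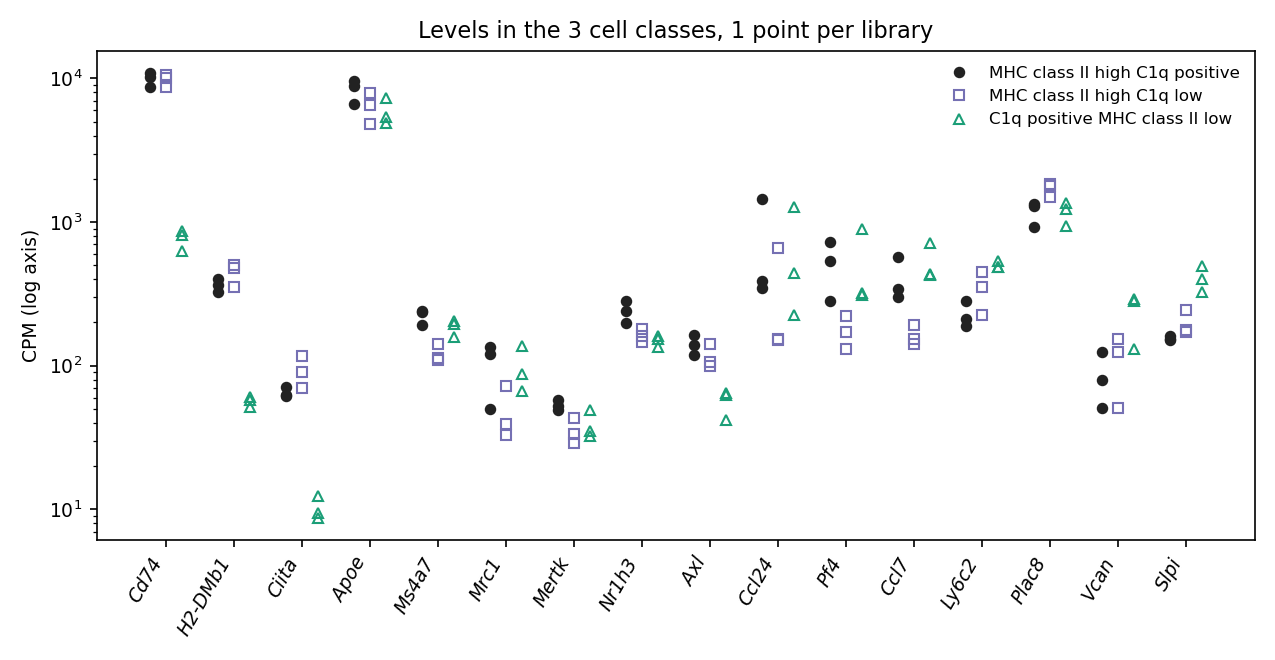
CPM (log axis) of 16 genes in MHC class II high C1q positive cells, MHC class II high C1q low cells and C1q positive MHC class II low cells, with 1 point per library. Cd74, H2-DMb1 and Ciita separate the 2 MHC class II high classes from the MHC class II low one, and Ms4a7 and Ccl7 lie higher in both C1q positive classes than in the C1q low one.

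The MHC class II part of the rule was described with C1q positive cells of under 15 MHC class II UMIs per 10000 (665, 881 and 647 cells, called MHC class II low). Members held far more RNA of the MHC class II partners Cd74, H2-DMb1 and Ciita, more of macrophage maturation genes, and less of monocyte and of glycolysis and hypoxia genes. Again these are descriptions: of 10223 genes, 7.53% passed in the blocked fit (3.81% higher and 3.72% lower in members), with 1.80% by DESeq2, and nothing is read from it. Members were higher in every library for 17.0% of genes and lower for 22.9%.

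The invariant chain gene Cd74 stood at 8698, 10279 and 10918 CPM in members and at 630, 865 and 819 in MHC class II low cells (log2 difference 3.72 ± 0.04). H2-DMb1 stood at 363, 398 and 324 beside 58.1, 60.8 and 51.4 (2.70 ± 0.06), H2-DMa at 325, 347 and 254 beside 159, 152 and 98.6 (1.21 ± 0.06), and Ciita at 71.2, 62.9 and 61.3 beside 9.41, 12.4 and 8.75 (2.65 ± 0.13). Every member value lay above every MHC class II low value for these 4 genes, none of which the rule used. In this comparison too, the share of all genes without such overlap was not counted. Of the 15 other MHC class II presentation genes tested, 8 were higher in every library and 2 lower, with a median of 0.21. Cells of high MHC class II were chosen, so the levels of genes that share its control are not independent of the choice.

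Single macrophage genes with a wide difference are given next. Axl, a receptor for uptake of dying cells, stood at 163, 140 and 120 in members and at 64.1, 62.1 and 42.0 in MHC class II low cells. Itgax, which encodes CD11c, stood at 74.9, 61.3 and 94.1 beside 29.6, 26.9 and 46.9. Pltp, a phospholipid transfer protein gene, stood at 55.7, 44.4 and 38.9 beside 24.1, 18.4 and 11.1. In each of the 3, no member value overlapped an MHC class II low value. Lipid-associated macrophage genes as a list went the other way: of 19, 3 were higher in members in every library and 10 lower, with a median of -0.10.

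The membrane protein genes Tmem176a (188, 231 and 227 beside 74.0, 98.3 and 89.8) and Tmem176b (328, 350 and 356 beside 129, 164 and 144) were also higher in members. Spic, the transcription factor gene of heme-handling macrophages, stood at 53.3, 128 and 92.9 beside 18.0, 71.4 and 45.2, with overlap between libraries and a higher member value within each. Of 24 macrophage maturation genes 15 were higher in members in all libraries and 2 lower, with a median of 0.29.

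Of 19 Ly6Chi monocyte genes, 16 were lower in members in all libraries and 0 higher, with a median of -0.68. Vcan, a matrix proteoglycan gene of classical monocytes, stood at 50.8, 126 and 80.2 beside 131, 284 and 289. Fn1, fibronectin, stood at 697, 568 and 1055 beside 1294, 1182 and 1816. Slpi, a protease inhibitor gene, stood at 151, 153 and 160 beside 401, 326 and 493. Lcn2, which encodes an iron-scavenging lipocalin, stood at 5.57, 30.5 and 27.3 beside 89.9, 62.1 and 125. The glycolysis and hypoxia genes were lower in members in all libraries for 24 of 28 and higher for 0, with a median of -0.26. Spp1, osteopontin, stood at 518, 539 and 995 beside 1411, 939 and 1970, and the arginine-degrading enzyme gene Arg1 at 493, 105 and 1100 beside 616, 338 and 2204.

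The genotype comparison asked how the cells differed when COMMD10, a protein of endosomal sorting, was lost. In members of the knockout library, genes of glucose use and hypoxia, the chemokine gene Ccl24, the granule proteoglycan gene Srgn and the heme-degrading enzyme gene Hmox1 were higher, and Cxcl9, Gbp2, Lyz2 and Lsp1 were lower. UMIs were summed over the members of each library and the 3 sums fitted with edgeR's quasi-likelihood test. Of 9041 genes tested, 40 passed an adjusted p of 0.05 (0.442%), 30 higher (0.332%) and 10 lower (0.111%), and 539 had an unadjusted p under 0.05. DESeq2 called 7 higher and 2 lower (0.0995% of genes), and edgeR with library totals in place of scaling factors called 7 and 1. For 32.8% of genes the knockout value lay above both controls and for 37.3% below both, so lying outside the controls is common. With a single knockout library, its variation was taken to equal that of the controls, and genotype cannot be told apart from anything else in which this library differed. The fold changes below are log2 values ± SE, and adjusted p-values are edgeR's.

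**Figure D3:**
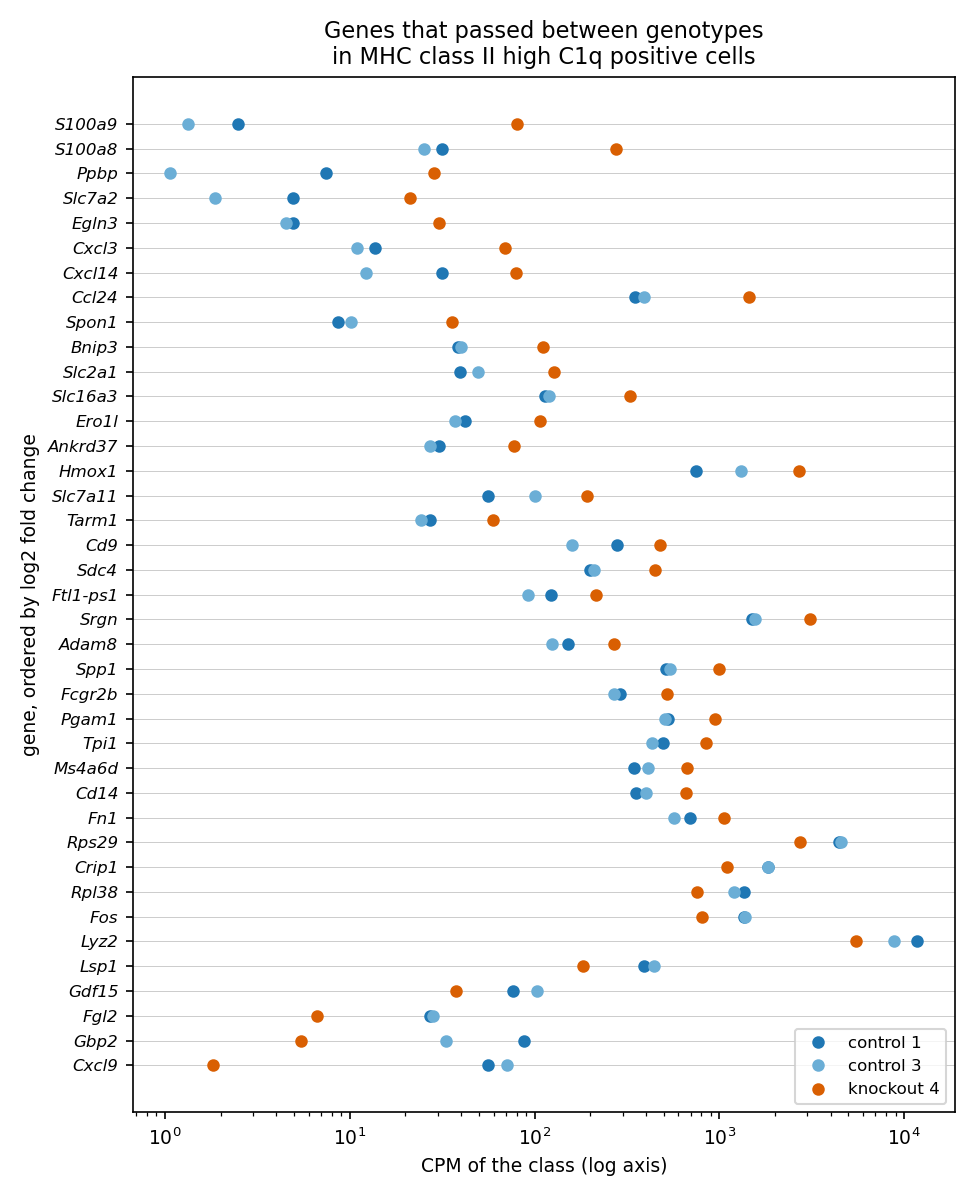
CPM (log axis) of the 39 named genes that passed between genotypes, with 1 point per library and genes ordered by log2 fold change. The knockout lies outside the range of the 2 controls for every gene drawn, as it does for Ccl24 at 1439 beside 349 and 389.

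Ccl24 rose most clearly of the secreted factors. It lies on chromosome 5 (135569937 to 135573049, GRCm38) and was at 1439 CPM in the knockout beside 349 and 389 in the controls (1.98 ± 0.15, adjusted p = 4.2e-06). It was detected in 50 of 190, 108 of 421 and 94 of 252 members. Among the 39 genes called here that have a symbol, Ccl24 and Srgn were the 2 that passed in all 13 settings with a test. Srgn (chromosome 10, 62493833 to 62527451) stood at 1502 and 1553 beside 3078 (1.03 ± 0.12, adjusted p = 8.7e-04) and was detected in 169, 398 and 242 members, nearly all of them.

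Genes of glycolysis and hypoxia formed the group with the most calls by edgeR. Of 28 tested, 8 rose and 0 fell, while DESeq2 called 1. Of the 28, 26 lay above both controls (32.8% of all genes did). The list's median was 0.69 beside -0.01 over all genes. The list was chosen with results of the sum of all monocytes and macrophages known, which contains these cells, so this is no independent evidence. Slc16a3, the lactate exporter MCT4, stood at 115, 120 and 328 CPM (1.498 ± 0.17, adjusted p = 6.0e-04) and was detected in 80 of 190, 187 of 421 and 168 of 252 members. The glucose transporter gene Slc2a1 stood at 39.6, 49.2 and 128 (1.52 ± 0.21).

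Bnip3, which marks mitochondria for removal in hypoxia, stood at 38.4, 39.9 and 112 (1.52 ± 0.21), and the oxidoreductase gene Ero1l, which helps proteins form disulfide bonds, at 42.1, 36.9 and 107 (1.47 ± 0.21). Egln3, a prolyl hydroxylase that senses oxygen, stood at 4.95, 4.55 and 30.4 (2.70 ± 0.41) from 8, 17 and 50 UMIs. The hypoxia-induced Ankrd37 stood at 30.3, 27.3 and 77.1, and the glycolytic enzyme genes Pgam1 (530, 506 and 950) and Tpi1 (497, 435 and 845) rose by 0.89 ± 0.15 and 0.88 ± 0.15. The controls lay close together for these genes, and the knockout lay apart. With each cell thinned to 3000 UMIs and the rule applied again, Slc2a1 moved to 0.59 and Ankrd37 to 0.70, while Slc16a3 was 1.30, Bnip3 1.40, Pgam1 0.84 and Tpi1 0.87, and none of the 8 genes passed. Vegfa, which induces vessel growth, stood at 19.8, 22.7 and 41.3 and did not pass (0.95 ± 0.29, adjusted p = 0.359).

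Of the NRF2, heme and iron genes, a pair rose. Hmox1 stood at 747, 1318 and 2695 (1.40 ± 0.22, adjusted p = 0.0086), with the controls themselves well apart. Slc7a11, the cystine importer gene, stood at 56.4, 101 and 192 (1.26 ± 0.25, adjusted p = 0.049), and at a fold change of 0.42 in thinned cells. These were 2 of 16 tested in that list, 0 fell, and DESeq2 called 0. The ferritin heavy chain gene Fth1 stood at 15127, 20116 and 23449 and did not pass (adjusted p = 0.366). Ftl1-ps1, a copy of a ferritin light chain gene, rose by 1.04 ± 0.20, but reads of such copies cannot be assigned with certainty.

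Chemokine genes went both ways: of 22 tested chemokine and cytokine genes, 3 rose and 1 fell, and DESeq2 called 3. Cxcl3, which attracts neutrophils, stood at 13.6, 10.97 and 69.2 CPM (2.55 ± 0.28, adjusted p = 3.6e-04), from 5, 13 and 26 cells with a UMI. Cxcl14, a chemokine gene outside the list, stood at 31.6, 12.3 and 79.5 (2.03 ± 0.36, adjusted p = 0.019) from 17, 16 and 21 cells. Ppbp, a chemokine gene of platelets, stood at 7.43, 1.07 and 28.5 from 4, 4 and 7 cells, and was at -0.13 when cells with a patrolling gene were left out. The rise of Ppbp therefore rested on very few cells. Platelet genes summed to 545, 287 and 758 CPM, mostly Pf4, and their part in it was not tested.

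Cxcl9, a chemokine gene induced by interferon gamma that attracts T cells, had 1.82 CPM in the knockout against 56.4 and 70.6 in the controls (-5.09 ± 0.47, adjusted p = 5.3e-05). It lay in 6, 13 and 3 cells. The highest cell held 35 of 91 UMIs in control 1, 152 of 264 in control 3 and 1 of 3 in knockout 4, and without the highest cell of each library the value was -4.63. Gbp2, an interferon-induced GTPase gene, stood at 87.9, 33.2 and 5.46 (-3.35 ± 0.62, adjusted p = 0.028), and 88 of its 142 UMIs in control 1 lay in 1 cell. These were the 2 of 18 tested interferon gamma genes that fell, 0 rose, and 11 lay below both controls (37.3% of all genes did). DESeq2 called 1 of the 18. The list's median was -0.24, and Cd274, which encodes PD-L1, lay higher in the knockout (32.2, 25.9 and 51.6) and did not pass (adjusted p = 0.359). Of 22 type I interferon genes 0 passed by edgeR and 0 by DESeq2, 1 had an unadjusted p under 0.05, and the median was -0.02.

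S100a8 and S100a9, alarmin genes of neutrophils and inflammatory monocytes, had the lowest p-values, and most of their knockout UMIs lay in 1 cell. S100a8 stood at 31.6, 25.1 and 275 CPM (3.33 ± 0.20, adjusted p = 5.1e-07), but 371 of its 453 UMIs in the knockout lay in 1 member, and without the highest cell of each library the value was 1.23. S100a9 stood at 2.48, 1.34 and 80.8 (5.54 ± 0.38, adjusted p = 1.4e-06), with 111 of 133 UMIs in 1 member, and was at 3.803 without the highest cell of each library. The 11 neutrophil genes together summed to 116, 146 and 457 CPM. Without that cell S100a8 lost most of its log2 difference, and S100a9 kept most of it from few UMIs. Both still passed without it (edgeR adjusted p = 0.031 and 0.032). Neither gene passed when cells of high UMI count were left out, or when the C1q limit was set relative to a cell's UMIs. S100a8 also did not pass in cells thinned to 3000 UMIs or without the highest 2% of cells. S100a9 also did not pass when only cells with no patrolling gene were kept.

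**Figure D4:**
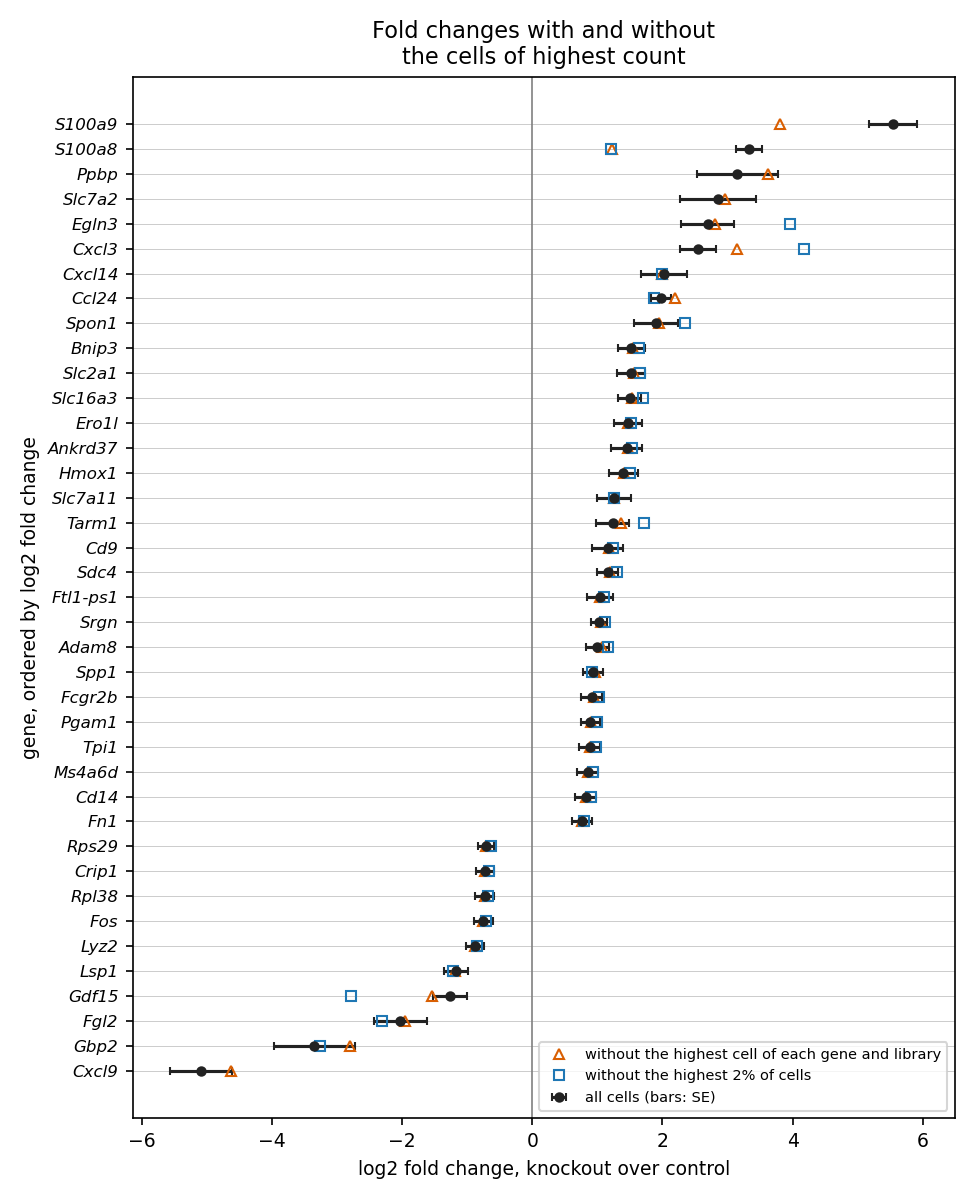
Log2 fold change between genotypes of the genes that passed, with all members (bars are SE), without the cell of highest count for each gene in each library, and without the highest 2% of cells. S100a8 moves from 3.33 to 1.23 without its highest cell, whereas Slc16a3 moves from 1.498 to 1.54 and to 1.70 without the highest 2% of cells. A missing square marks a gene too low to be tested after that change.

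Other genes that rose encode surface and matrix proteins. Cd14, and Fn1 given below, were the 2 of 19 Ly6Chi monocyte genes that rose, 0 fell, and DESeq2 called 0. Of those 19, 8 had an unadjusted p under 0.05. In the same list 9 lay above and 3 below both controls (32.8% and 37.3% of all genes did), with a median of 0.18. Among 24 macrophage maturation genes 0 passed. Sdc4, a heparan sulfate proteoglycan gene, stood at 199, 209 and 449 (1.16 ± 0.17, adjusted p = 0.0045). Fcgr2b, the inhibitory IgG receptor gene, stood at 291, 269 and 520, and Cd14, the co-receptor for lipopolysaccharide, at 354, 403 and 662. Adam8, a metalloprotease gene, stood at 151, 125 and 271, and Tarm1, an activating receptor gene of myeloid cells, at 27.2, 24.3 and 59.5. For each of these 5 genes the 2 controls lay closer to each other than to the knockout.

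Spp1 stood at 518, 539 and 995 (0.93 ± 0.15, adjusted p = 0.0086), Fn1 at 697, 568 and 1055 (0.76 ± 0.16, adjusted p = 0.049) and the tetraspanin gene Cd9 at 281, 159 and 478 (1.16 ± 0.24, adjusted p = 0.049). Spp1 and Cd9 were the 2 of 19 lipid-associated macrophage genes that rose, 0 fell, and DESeq2 called 0. When only cells with 0 patrolling genes were kept, Spp1 was at 0.37 and Fn1 at 1.02, and in cells thinned to 3000 UMIs they were at 0.26 and 0.19. Slc7a2, an arginine transporter gene, stood at 4.95, 1.87 and 21.3 from 5, 6 and 15 cells. Spon1, an extracellular matrix gene, stood at 8.67, 10.2 and 35.8, and Ms4a6d at 344, 409 and 672. Arg1 stood at 493, 105 and 1100 and did not pass (1.94 ± 0.48, adjusted p = 0.159), the controls being far apart.

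Of the genes that fell, Lyz2 held 11799 and 8810 CPM in the members of the controls and 5493 in those of the knockout (-0.89 ± 0.14, adjusted p = 0.0086). Lyz2 encodes lysozyme and is the locus that carries the Cre, so for this gene the construct and the loss of Commd10 cannot be told apart. Lsp1, an actin-binding protein gene of leukocytes, stood at 393, 443 and 184 (-1.17 ± 0.19, adjusted p = 0.0086), and Crip1 at 1831, 1833 and 1096 (-0.72 ± 0.14). Fgl2, a secreted fibrinogen-like immunoregulator gene, stood at 27.2, 28.1 and 6.68 (-2.03 ± 0.41) and Gdf15, a stress cytokine gene, at 76.8, 103 and 37.6 (-1.26 ± 0.26). Detected Gdf15 lay in 24, 65 and 14 members.

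Fos, an immediate-early transcription factor gene, stood at 1360, 1383 and 803 (-0.75 ± 0.14, adjusted p = 0.036). It was the 1 of 21 tested immediate-early genes that fell, 0 rose, and DESeq2 called 0. Of the 21, 13 lay below both controls (37.3% of all genes did). Nr4a1, a nuclear receptor gene of patrolling monocytes, stood at 248, 185 and 126 and did not pass (adjusted p = 0.296). All 12 tested genes of short ribosomal proteins lay below both controls, with a median of -0.45, and DESeq2 called 0 of them. At an unadjusted p under 0.05 there were 11. Their sum was 30797, 30154 and 21657 CPM in members. In the cells low in both MHC class II and C1q it was 29235, 30643 and 20108, so the difference was not particular to members. Rps29 (4458, 4575 and 2729) and Rpl38 (1359, 1194 and 757) fell by 0.71 and 0.73 on the log2 scale, and Rps28 (1647, 1391 and 945) did not pass (adjusted p = 0.099).

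Of 15 other MHC class II presentation genes 0 passed between genotypes by edgeR and 0 by DESeq2, and 5 had an unadjusted p under 0.05. Of the 15, 8 lay above and 6 below both controls (32.8% and 37.3% of all genes did), and the median was 0.19. Within the members, which had to carry them, all 6 marker genes of the rule lay above both controls. H2-Aa stood at 2892, 3184 and 3552 CPM and C1qb at 1924, 1903 and 2640, a description of chosen values. The costimulatory genes Cd86 (134, 155 and 224, adjusted p = 0.313) and Cd80 (6.19, 10.4 and 21.9, adjusted p = 0.402) lay higher in the knockout and did not pass.

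Of 12 other complement genes 0 passed by edgeR or by DESeq2 and 3 had an unadjusted p under 0.05, with a median of 0.04. The receptor genes C5ar1 (456, 473 and 658, adjusted p = 0.357) and C3ar1 (231, 207 and 308, adjusted p = 0.494) bind the complement fragments C5a and C3a. Of 24 macrophage maturation genes 0 passed by either tool and 5 had an unadjusted p under 0.05, with a median of 0.16. Of the 24, 13 lay above both controls and 5 below (32.8% and 37.3% of all genes did). Itga9, an integrin gene, came nearest (48.3, 40.9 and 88.0, adjusted p = 0.065).

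By edgeR and by DESeq2, 0 of 25 lysosome genes, 0 of 19 genes for uptake of dying cells, 0 of 16 repair and growth factor genes and 0 of 12 COMMD, CCC and retriever complex genes passed. At an unadjusted p under 0.05 there were 4, 6, 8 and 1. The COMMD, CCC and retriever complexes recycle receptors from endosomes, and their list had a median of -0.05.

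**Figure D5:**
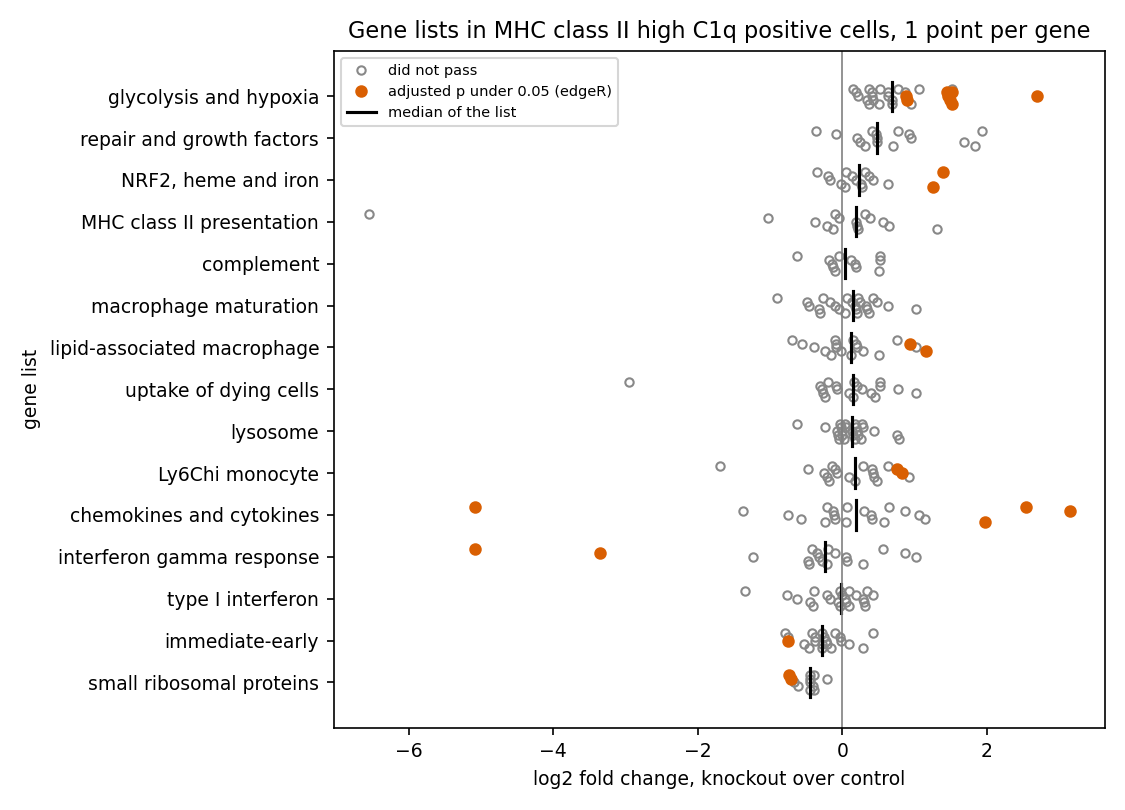
Log2 fold change between genotypes of each tested gene in 15 lists, with genes at an edgeR adjusted p under 0.05 filled and the median of each list as a bar. The glycolysis and hypoxia list lies to the right of 0 (median 0.69, 8 of 28 filled), and the short ribosomal protein list to the left (median -0.45, 2 of 12 filled).

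Whether these differences were larger in members than in neighbouring cells was tested with the interaction of class and genotype. Most of the genes named above were not shown to differ: Slc16a3, Bnip3, Slc2a1, Ero1l, Egln3, Ccl24, Spp1 and Lyz2 did not pass against either class. For Ccl24 the fold change in members minus that in MHC class II high C1q low cells was -0.19 ± 0.11 (adjusted p = 0.856), and minus that in MHC class II low cells -0.11 ± 0.09 (adjusted p = 0.961). For Slc16a3 these were -0.06 ± 0.15 (adjusted p = 0.977) and 0.20 ± 0.12 (adjusted p = 0.893). Against C1q low cells 0.246% of 9348 genes passed, 12 with a higher and 11 with a lower effect in members. Against MHC class II low cells 0.484% of 11168 genes passed, 19 and 35. DESeq2 called 0 (0.00%) and 2 (0.0179%). In these fits 1 residual degree of freedom was left, and the spread came almost wholly from the trend over genes, so a gene that varies more than the trend can pass.

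For Apoe the genotype difference was larger in members than in both neighbouring classes by edgeR's interaction test. It stood at 6674, 8795 and 9664 CPM in members, at 4857, 7941 and 6527 in C1q low cells and at 4866, 7268 and 5395 in MHC class II low cells. The difference of effects was 0.26 ± 0.05 (edgeR adjusted p = 0.0015) and 0.47 ± 0.05 (adjusted p = 2.0e-16). The controls themselves differed in the gap between members and C1q low cells (6674 beside 4857, and 8795 beside 7941). The knockout gap (9664 beside 6527) lay nearer to that of control 1, so the first value is not secure. Against MHC class II low cells the control gaps differed as well (6674 beside 4866, and 8795 beside 7268). There the knockout gap (9664 beside 5395) was wider than both. The second p-value rests on 1 knockout library and on the trend over genes, so it does not measure the spread between libraries. In both neighbouring classes the knockout lay between the controls, and in members it lay above both, although Apoe itself did not pass between genotypes in members (0.34 ± 0.14, adjusted p = 0.713). Hmox1 rose more in members than in C1q low cells (by 0.39 ± 0.08) and than in MHC class II low cells (by 0.34 ± 0.07).

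For some genes the fold change between genotypes was lower in members than in 1 or both of the other classes. Cxcl3 reached 69.2 CPM in members of the knockout, 284 in C1q low cells and 237 in MHC class II low cells, a difference of effects of -2.87 ± 0.36 and -1.56 ± 0.28. Thbs1, thrombospondin, reached 562 in members and 920 and 1105 in the other classes (-0.77 ± 0.11 and -0.41 ± 0.10). Arg1 and Srgn passed against C1q low cells (-0.80 ± 0.12 and -0.35 ± 0.07), and did not against MHC class II low cells (-0.08 ± 0.09, adjusted p = 0.981, and -0.19 ± 0.07, adjusted p = 0.331). For Arg1 the controls again differed in the gap between members and C1q low cells (493 beside 226, and 105 beside 82.3). Its knockout values were close in these classes (1100 beside 1121).

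Against MHC class II low cells, Crip1 (-0.58 ± 0.07), Gbp2 (-2.85 ± 0.45) and Fgl2 (-2.10 ± 0.42) fell more in members, and Cxcl14 rose more (1.32 ± 0.27). Fgl2 stood at 30.2, 39.2 and 36.7 in the MHC class II low cells, where the knockout lay between the controls, beside 27.2, 28.1 and 6.68 in members. Gbp2 stood there at 24.5, 19.8 and 16.0. The members' values of Gbp2 and Fgl2 in the knockout came from 9 and 11 UMIs.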

How the data were processed

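Single cells of 3 libraries were captured with the 10x 3' method. The values deposited are raw UMI counts for every gene and barcode, made by the authors with Cell Ranger 3.0.2 after bcl2fastq on GRCm38, per the submitters' processing notes. Barcodes with 500 or more genes and up to 10% of UMIs from mitochondria remained (4115, 7449 and 4457 cells), and no doublet caller was run. The members and gene lists were chosen with earlier results of these data known.

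UMIs were summed per library and class, and the sums entered edgeR 4.0.16 under R 4.3.3. Genes were filtered with filterByExpr and scaled with TMM, and glmQLFit was followed by glmQLFTest, two-sided, with Benjamini-Hochberg adjustment over all genes tested and a threshold of 0.05. The genotype fit had 1 residual degree of freedom (13.8 prior, biological coefficient of variation 13.3%). Fits between classes had the library as block. They had been planned as tests and are printed as descriptions, because the rule cut both classes from the same cells. In the interaction fits the prior degrees of freedom were 549 and not finite. Levels are CPM of the unscaled class sum, and TMM factors enter only fold changes. The scripts were tested on simulated counts.

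Alternatives were DESeq2 1.42.0, library totals, no filter on low counts, other limits of the rule, thinning, and leaving out each library, cells with lymphocyte or patrolling genes, or the highest cells of each gene. The last 3 kinds were chosen after seeing the data. The rule for named genes took the 12 largest changes in each direction (mean of 20 CPM or more between genotypes and 50 between classes) and up to 4 genes of lowest p per list. From these the text names a part, chosen after the values were seen, and it names all 39 genes with a symbol that passed between genotypes. Marker lists of 15 other cell types were read. Lists the report does not describe had few genes tested between genotypes: plasmacytoid dendritic (3), endothelial (2), hepatocyte (7) and capsule or bridging macrophage (5). In these, 0 genes were called, with the exception of Spp1 in the last. The natural killer, stellate and erythroid lists, also not described, had 0 genes tested, so none could be called.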

Additional observations from a re-analysis of the deposited data

Results flagged for a closer look

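For 18 results the genotype difference itself differed between members and a neighbouring class by edgeR's interaction test. No cause was tested. Values are the log2 fold change in members minus that in the other class. The spread in these fits came almost wholly from the trend over genes, and DESeq2 called 0 genes against the C1q low cells and 2 against the MHC class II low cells.

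Against MHC class II high C1q low cells, the difference was higher in members for S100a8 (3.61), S100a9 (3.82), Hmox1 (0.39) and Apoe (0.26), and lower for Cxcl3 (-2.87), Arg1 (-0.80), Thbs1 (-0.77) and Srgn (-0.35). Most UMIs of S100a8 and S100a9 in members of the knockout library lay in 1 cell, 371 of 453 and 111 of 133. Arg1 differed widely between the controls, at 493 and 105 CPM in members. For Apoe and Arg1 the gap between members and C1q low cells also differed between the controls.

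Against C1q positive MHC class II low cells, it was higher in members for S100a8 (2.18), S100a9 (4.77), Apoe (0.47), Cxcl14 (1.32) and Hmox1 (0.34), and lower for Crip1 (-0.58), Gbp2 (-2.85), Cxcl3 (-1.56), Fgl2 (-2.10) and Thbs1 (-0.41). For Apoe the gap between these classes differed between the controls here too.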

How the results depend on the processing

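The numbers of genes called between genotypes in members depended on nearly every choice, while directions held. From 30 higher and 10 lower, they became 7 and 2 with DESeq2, 7 and 1 with library totals, 59 and 20 with no filter on low counts, 8 and 1 with MHC class II at 25 per 10000, 57 and 22 with C1q at 5 per 10000, 4 and 2 with cells thinned to 3000 UMIs, 7 and 1 at up to 5% mitochondrial UMIs, 13 and 0 with no patrolling limit, and 15 and 3 without the highest 2% of cells of each gene. Without cells of high UMI count 6 were lower. Of the 39 named genes, 38 kept their sign in all settings with a test. The exception was Ppbp (-0.13 with no patrolling gene). Leaving out a control leaves 1 library against 1 and gave values with no test. No paired analysis was possible because the control libraries (1 and 3) and the knockout library (4) share no replicate number. The cause of these changes was not tested.

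Between members and C1q low cells (133 higher, 175 lower), 38 and 36 genes passed with DESeq2, 3 and 0 with no replicate block for the library, and 34 and 50 with no patrolling gene. Between members and MHC class II low cells (390 and 380), 84 and 100 passed with DESeq2, 15 and 14 with no replicate block, 121 and 124 in thinned cells and 138 and 156 with no patrolling gene. There, 592 were lower with no filter and 244 with C1q at 5 per 10000, and leaving out 1 library gave 233 (without control 1) to 329 higher and 262 to 339 lower.

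For the interaction against C1q low cells (12 and 11), DESeq2 called 0 and 0 and library totals 6 and 7, and 7 were lower with no filter. Against MHC class II low cells (19 and 35), DESeq2 called 2 and 0, and 32 were higher with library totals. Differences close to 0 changed sign there for Ms4a6d (-0.0216, DESeq2) and Rpl38 (0.00831, no filter) against the first class, and for Bnip3 (0.0183), Rps29 (0.0280), Adam8 (0.0127) and Cd14 (0.00613) with no filter, Rps29 (0.000915, library totals) and Ppbp (-0.0362, DESeq2) against the second. None of these had passed.

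The share of members was 3.74, 4.83 and 4.69% (control 1, control 3, knockout 4) with MHC class II at 25 per 10000, 5.35 and 6.87% in the thinned controls, 4.90% in the knockout at up to 5% mitochondrial UMIs, 7.58, 9.17 and 7.09% with no patrolling limit, and 1.53, 1.83 and 2.38% with no patrolling gene.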
